A study of Mus musculus with 6 samples.

Results

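The 10 genes described here encode chemokines, 7 of the CC class (Ccl2, Ccl3, Ccl4, Ccl5, Ccl6, Ccl9 and Ccl22) and 3 of the CXC class (Cxcl2, Cxcl10 and Cxcl16). They were chosen by name, as the rows whose Entrez identifier maps to these symbols, and are 10 of the 16058 genes listed in at least 1 library. Splenic macrophages of C57BL/6 mice had been sorted for RNA sequencing into 3 gates, Ly6chiF4/80lo, Ly6cloF4/80lo and Ly6cloF4/80hi. The first state was T-ALL, T cell acute lymphoblastic leukemia, in mice that had received 1000000 GFP-positive leukemia cells at 6 to 8 weeks of age, without irradiation, and were sorted at day 15. The other state was normal, sorted at day 0 from mice of the same strain and labelled age. Each gate and state had 1 library, 6 in all. The labels give no genotype or driver of the leukemia cells and do not say how many mice went into a sort or whether the 3 gates of a state came from separate mice. A p-value here therefore covers the spread left among these fractions after additive terms for gate and state, and not that among mice. The comparisons ask how the chemokine RNA of the spleen gates differed between leukemia-bearing and normal mice, and between gates.

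Chemokines are small secreted proteins that bind G protein-coupled receptors on leukocytes and direct their movement along a gradient. The CC class mainly draws monocytes, macrophages, dendritic cells and lymphocytes. The CXC class splits between ligands of neutrophil receptors, such as Cxcl2, and ligands of lymphocyte receptors, such as Cxcl10 and Cxcl16. In the spleen, monocytes, macrophages, dendritic cells and natural killer cells are all known sources.

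The libraries listed 14225 to 14628 genes, and their depth, estimated from the step between low FPKM values, was 6480000 to 8370000 fragments. FPKM (fragments scaled by transcript length and by library size) is a level per length, so levels of different genes are compared on that scale below. The sort genes followed the gates, with Ly6c2 at 1405 and 482 FPKM in T-ALL and normal Ly6chiF4/80lo and at most 21.4 FPKM elsewhere, and Adgre1, which encodes F4/80, highest in the Ly6cloF4/80hi gate (234 FPKM in T-ALL, 529 FPKM in normal). Genes of other cells were present as well. The summed level of 7 B cell genes was 1127 to 2171 FPKM in T-ALL and 1290 to 3134 FPKM in normal libraries. That of 10 neutrophil genes was 45271 FPKM in T-ALL and 13478 FPKM in normal Ly6chiF4/80lo. The sum of 9 erythroid genes was 5017 FPKM in T-ALL and 493 FPKM in normal Ly6cloF4/80lo. In Ly6cloF4/80hi it was 35482 and 4427 FPKM, and in Ly6chiF4/80lo 782 and 774 FPKM. Both F4/80lo gates held little Mertk, a macrophage receptor. It had 1.3 FPKM in T-ALL and 4.8 FPKM in normal Ly6cloF4/80lo, and 1.8 and 3.8 FPKM in Ly6chiF4/80lo. The sum of 8 general macrophage genes was nonetheless 2194 FPKM in T-ALL and 2570 FPKM in normal Ly6cloF4/80lo, most of it Lyz2 (1707 and 2075 FPKM). In sorted bulk RNA, fewer cells of a type and less RNA per cell cannot be told apart.

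All 10 genes were listed in all 6 libraries, and all 10 passed the filter on low values (at least 1 FPKM in at least 2 libraries), as did 11616 genes in total. Ccl5 and Ccl6 were the most abundant in every library and together made up 68, 70.2 and 63.2% of the chemokine sum in T-ALL and 78, 71.3 and 63.9% in normal (Ly6chiF4/80lo, Ly6cloF4/80lo and Ly6cloF4/80hi in that order, as in all lists of gates below). Ccl6 ranked first in both Ly6chiF4/80lo libraries and Ccl5 in the other 4, and Ccl2 was the lowest of the 10 in all 6. The sum over the 10 genes was 450.4, 637.8 and 344 FPKM in T-ALL and 866, 643 and 327 FPKM in normal. The normal Ly6chiF4/80lo library held the largest sum of the 6 and its T-ALL counterpart a far smaller one, while the sums of the states lay close in Ly6cloF4/80lo and in Ly6cloF4/80hi.

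**Figure D1:**
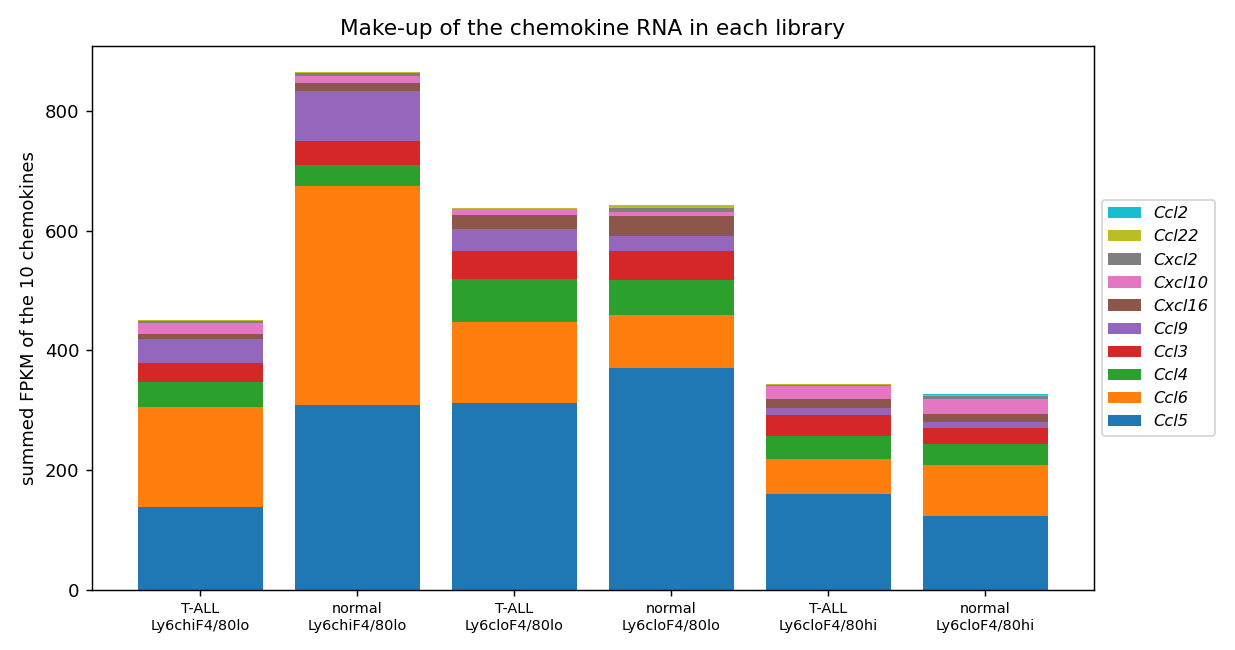
Stacked bars of the FPKM of the 10 chemokines in each of the 6 libraries (1 per gate and state), T-ALL left of normal in each gate. Ccl5 and Ccl6 form most of every bar, and the T-ALL Ly6chiF4/80lo bar (450.4 FPKM) is far shorter than the normal one (866 FPKM).

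In T-ALL against normal over the 3 gates, none of the 10 chemokines passed the test, against 12.1% of all tested genes (8.2% higher and 3.94% lower). The test was limma on log2(FPKM + 1) with gate as a block, adjusted by Benjamini-Hochberg over 11616 genes, two-sided, with a threshold of 0.05. At an unadjusted p under 0.05 there were 2 genes, Ccl22 and Cxcl2, against 34.8% of all genes. The median log2 change of the 10 was -0.35, beside -0.03 for all genes, with 3 positive and 7 negative values. Ccl2, Ccl22 and Cxcl2 were lower in T-ALL in all 3 gates, a pattern that 30% of all genes had, and Ccl4 was higher in all 3, as 27.9% of genes were. Only Cxcl2 had all 3 T-ALL libraries below all 3 normal ones, as 10.9% of genes did. A fold change on the log2(FPKM + 1) scale understates that of the lowest genes.

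**Figure D2:**
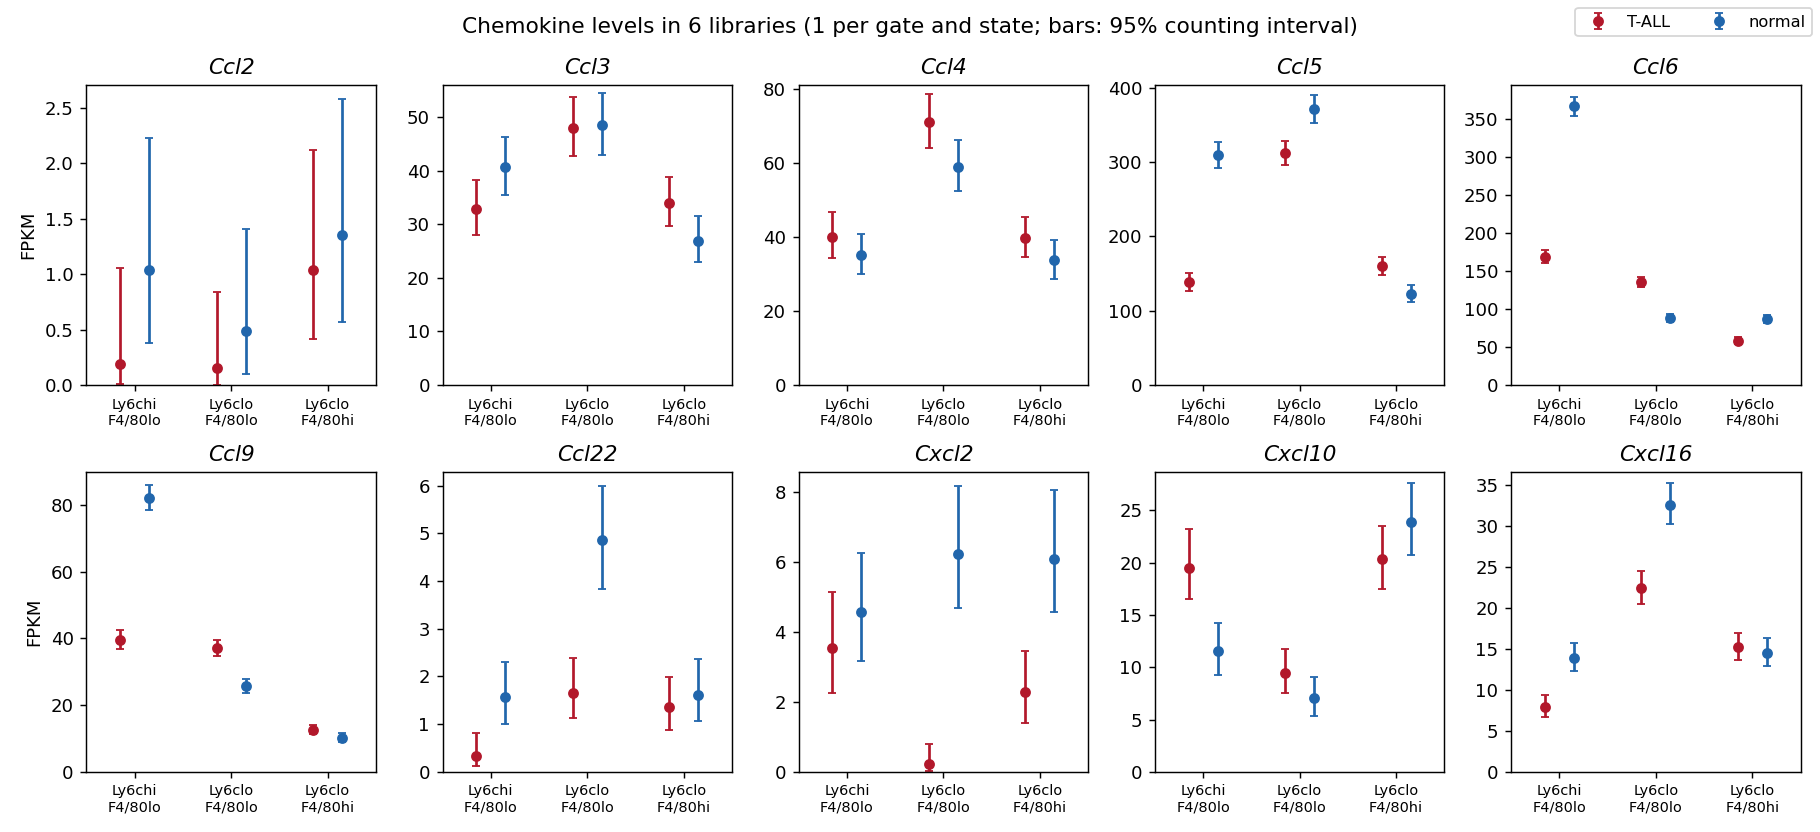
FPKM of each chemokine in the 6 libraries, 1 panel per gene with its own axis from 0 and T-ALL (red) left of normal (blue) in each gate; bars are 95% intervals of the fragment count. Cxcl2 lies lower in T-ALL in every gate, while Ccl5, Ccl6 and Ccl9 are at least 2-fold lower in T-ALL in the Ly6chiF4/80lo gate alone.

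Ccl3, Ccl4 and Ccl5 are inflammatory chemokines that draw monocytes and T cells, and Ccl3 and Ccl5 bind the receptor Ccr1. Ccl3 had 32.8, 48.0 and 34.0 FPKM in T-ALL and 40.65, 48.4 and 26.9 FPKM in normal. Its 2 states overlapped and met in Ly6cloF4/80lo, and the fitted log2 change was 0.00 (SE 0.16, adjusted p = 0.985 by limma). Ccl4 had 40.2, 71.2 and 39.9 FPKM in T-ALL and 35.2, 59.1 and 33.8 FPKM in normal. It was slightly higher in T-ALL in all 3 gates (log2 0.23, SE 0.13, adjusted p = 0.251 by limma), and the states overlapped. Both genes peaked in Ly6cloF4/80lo in both states, and the level of Ccl3 over that of Ccl4 was 0.816, 0.673 and 0.853 in T-ALL and 1.16, 0.82 and 0.796 in normal. The genes are neighbours on chromosome 11, and whether the counting used strand is not given in the sources used here, so any reads they share could be split either way.

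Ccl5, which T cells and natural killer cells are known to store and release, had 138, 312 and 159.7 FPKM in T-ALL and 309, 371 and 123 FPKM in normal. The Ly6cloF4/80lo libraries were the highest of each state, T-ALL Ly6chiF4/80lo was far below its normal counterpart, and T-ALL Ly6cloF4/80hi was above its own. Over the gates the log2 change was -0.34 (SE 0.30, adjusted p = 0.443 by limma), and without either Ly6chiF4/80lo library it was 0.07. The 10 natural killer cell markers and the 10 T cell markers were all found, and none was at 0 in any library. The natural killer cell sum was 346, 362 and 190 FPKM in T-ALL and 730, 306 and 171 FPKM in normal, lower in T-ALL in Ly6chiF4/80lo alone. The T cell sum was 127, 154 and 154 FPKM in T-ALL and 186, 248 and 120 FPKM in normal, which had the direction of Ccl5 in each gate. Their part in the Ccl5 values was not tested.

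Ccl2, the ligand of Ccr2 that draws monocytes from bone marrow and blood, was close to the limit of detection. It had 0.19, 0.15 and 1.04 FPKM in T-ALL and 1.04, 0.49 and 1.35 FPKM in normal, which correspond to 1, 1 and 7 and to 6, 3 and 8 fragments. The T-ALL library was the lower one in each gate, but the states overlapped and every counting interval of the ratio reached past 1. The fitted log2 change was -0.45 (SE 0.22, adjusted p = 0.192 by limma; -0.29 without either Ly6chiF4/80lo library), and no difference was detectable at this depth.

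Ccl6 and Ccl9 are CC chemokines of rodent myeloid cells that act on Ccr1. They sit in the same cluster on chromosome 11. Ccl6 had 168, 136 and 58.0 FPKM in T-ALL and 366, 87.7 and 86.7 FPKM in normal. Ccl9 had 39.6, 37.0 and 12.6 FPKM in T-ALL and 82.2, 25.7 and 10.1 FPKM in normal. For both, the order of gates was Ly6chiF4/80lo, then Ly6cloF4/80lo, then Ly6cloF4/80hi in each state, with the normal Ly6chiF4/80lo library highest of all, although normal Ly6cloF4/80lo and Ly6cloF4/80hi were nearly equal for Ccl6. The level of Ccl6 over that of Ccl9 was 4.25, 3.66 and 4.62 in T-ALL and 4.45, 3.41 and 8.57 in normal, so the normal Ly6cloF4/80hi library had the highest of the 6 ratios. In T-ALL against normal, the log2 change was -0.35 for Ccl6 (SE 0.32, adjusted p = 0.467 by limma). For Ccl9 it was -0.08 (SE 0.30, adjusted p = 0.87 by limma). Without either Ly6chiF4/80lo library these values were 0.03 and 0.40.

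Promoter windows of Ccl6 and Ccl9 are shown because the genes varied together across the gates. They are credited to RefSeq on GRCm38.p6, run from 250 bases before to 50 after the annotated start, 5′ to 3′ on the gene's strand, and capitals mark motif matches. Ccl6 lies at chr11:83593038-83593337, minus strand, and Ccl9 at chr11:83578587-83578886, minus strand.
Ccl6: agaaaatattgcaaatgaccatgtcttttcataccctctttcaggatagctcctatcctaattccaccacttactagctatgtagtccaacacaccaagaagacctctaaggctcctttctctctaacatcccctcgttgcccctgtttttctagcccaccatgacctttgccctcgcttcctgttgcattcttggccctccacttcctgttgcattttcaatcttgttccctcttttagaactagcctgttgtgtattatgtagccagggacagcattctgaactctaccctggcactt
Ccl9: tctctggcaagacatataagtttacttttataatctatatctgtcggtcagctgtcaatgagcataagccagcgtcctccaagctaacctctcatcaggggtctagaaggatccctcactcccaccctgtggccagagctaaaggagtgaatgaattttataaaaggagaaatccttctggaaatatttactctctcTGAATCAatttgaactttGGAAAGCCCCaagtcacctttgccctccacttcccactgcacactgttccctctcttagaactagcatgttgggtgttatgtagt
Searched on both strands were the NF-kB consensus (10 bases), the AP-1 motif TGANTCA and the interferon regulatory factor motif GAAANNGAA, which occur in 4.51, 7.81 and 8.56% of all 32851 windows of this length. The Ccl9 window held 1 AP-1 match and 1 NF-kB match, which do not overlap, and the Ccl6 window held no match to any of the 3. These are matches of letters in 300 bases and say nothing of binding.

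Ccl22, a ligand of Ccr4 made mainly by dendritic cells and macrophages and known for drawing regulatory T cells, had 0.33, 1.66 and 1.35 FPKM in T-ALL and 1.57, 4.86 and 1.60 FPKM in normal. The counts behind these were 5, 30 and 25 fragments in T-ALL and 25, 82 and 27 in normal. T-ALL was lower in each gate, least in Ly6cloF4/80hi, although the states overlapped. The fitted log2 change was -0.75 (SE 0.25), which did not pass (adjusted p = 0.0929 by limma, and 0.0777 to 0.413 over 12 alternatives). Its ratio of T-ALL to normal was 0.21 in Ly6chiF4/80lo (95% counting interval 0.0664 to 0.591) and 0.342 in Ly6cloF4/80lo (0.219 to 0.53). Conventional dendritic cell markers were lower in the same direction. All 9 of 9 were found, none was at 0, and their sum was 147, 483 and 261 FPKM in T-ALL and 445, 823 and 334 FPKM in normal. Most of the gap in Ly6chiF4/80lo was Cd209a, with 21.9 FPKM in T-ALL and 217 FPKM in normal. Of the 9 markers, 4 passed as lower and none as higher, beside 3.94 and 8.2% of all genes. Their part in the Ccl22 values was not tested.

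Cxcl2 is a ligand of Cxcr2 that draws neutrophils and is switched on quickly in stimulated macrophages. It had 3.54, 0.23 and 2.29 FPKM in T-ALL and 4.57, 6.22 and 6.07 FPKM in normal, from 25, 2 and 21 fragments and from 36, 53 and 51. All T-ALL libraries lay below all normal libraries, and T-ALL Ly6cloF4/80lo was nearly empty of it. The ratio of T-ALL to normal was 0.775 in Ly6chiF4/80lo (95% counting interval 0.444 to 1.32), 0.037 in Ly6cloF4/80lo (0.0042 to 0.135) and 0.377 in Ly6cloF4/80hi (0.211 to 0.625). The fitted log2 change of -1.32 (SE 0.41) was the largest of the 10 but did not pass (adjusted p = 0.0807 by limma). It passed without the T-ALL or the normal Ly6chiF4/80lo library, 2 refits that share 1 estimate (log2 -1.83, adjusted p = 0.04957 and 0.04955 by limma). Its highest adjusted p over 12 alternatives was 0.278. Without the T-ALL or the normal Ly6cloF4/80lo library the log2 change was -0.70 (adjusted p = 0.174 and 0.193 by limma).

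Promoter windows of Cxcl2 and Ccl22 are shown because both genes were lower in T-ALL in all 3 gates. They have the same source and layout as those above. Cxcl2 lies at chr5:90903649-90903948, plus strand, and Ccl22 at chr8:94745434-94745733, plus strand.
Cxcl2: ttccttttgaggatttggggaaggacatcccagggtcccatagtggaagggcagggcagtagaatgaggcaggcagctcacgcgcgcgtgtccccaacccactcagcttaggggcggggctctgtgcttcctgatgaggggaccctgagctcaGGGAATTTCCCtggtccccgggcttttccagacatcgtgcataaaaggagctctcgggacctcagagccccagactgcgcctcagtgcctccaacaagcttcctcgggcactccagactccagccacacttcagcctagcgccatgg
Ccl22: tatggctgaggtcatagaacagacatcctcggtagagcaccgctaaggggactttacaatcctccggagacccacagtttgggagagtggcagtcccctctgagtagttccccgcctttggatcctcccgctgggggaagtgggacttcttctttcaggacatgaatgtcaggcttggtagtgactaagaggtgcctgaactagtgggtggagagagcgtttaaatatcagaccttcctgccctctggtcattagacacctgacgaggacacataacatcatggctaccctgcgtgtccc
The Cxcl2 window held 2 matches to the NF-kB consensus, 1 on each strand and overlapping by all but 1 base, and no AP-1 or interferon regulatory factor match. The Ccl22 window held no match to any of the 3 motifs. Windows were found for 6 of the 10 chemokines. Of those not shown, the Cxcl10 window held 2 NF-kB matches, 1 AP-1 match and 1 interferon regulatory factor match. The Ccl3 window held 1 interferon regulatory factor match. Cxcl10 was not lower in T-ALL over the gates (log2 0.29), and no link between matches and levels was tested.

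Early-response genes were lower alongside Cxcl2. Of 20 immediate early genes, 8 passed as lower in T-ALL and none as higher, beside 3.94 and 8.2% of all genes. All 20 had a negative log2 change (median -0.97, beside -0.03 for all genes). Atf3, a stress-induced transcription factor, had a log2 change of -2.66 (SE 0.21, adjusted p = 0.00832 by limma). Dusp1, a phosphatase that switches off MAP kinases, fell by 1.55 on the log2 scale (SE 0.17, adjusted p = 0.00898 by limma). Both passed in 13 of 13 alternatives. Of 20 NF-kB response genes, 7 passed as lower and none as higher (median log2 -0.46), with 19 negative values and 1 positive. Ptgs2, the inducible cyclooxygenase, was 1 of the 7 (log2 -1.50, SE 0.27, adjusted p = 0.0247 by limma). It passed in 6 of 12 alternatives and was lost without the T-ALL or normal library of either Ly6clo gate. These list members were 20 of 20 tested in each case, and their part in the Cxcl2 values was not tested.

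Cxcl10, an interferon-induced ligand of the T cell and natural killer cell receptor Cxcr3, had 19.5, 9.48 and 20.3 FPKM in T-ALL and 11.5, 7.05 and 23.9 FPKM in normal. T-ALL was higher in both F4/80lo gates and lower in Ly6cloF4/80hi, and the states overlapped (log2 0.29, SE 0.20, adjusted p = 0.348 by limma). The value was 0.08 without either Ly6chiF4/80lo library and 0.55 without either Ly6cloF4/80hi library. Of 20 interferon response genes, 1 passed as higher in T-ALL (Isg20, an exonuclease) and 2 as lower (Ifit3 and Mx1, both antiviral). The shares of all genes were 8.2% higher and 3.94% lower. The median log2 of the 20 was -0.09, with 9 positive and 11 negative values. Isg20 passed in 11, Ifit3 in 6 and Mx1 in 5 of 13 alternatives.

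Cxcl16, which is made as a membrane-bound protein and is the ligand of Cxcr6, had 7.92, 22.5 and 15.2 FPKM in T-ALL and 13.9, 32.6 and 14.5 FPKM in normal. It was highest in Ly6cloF4/80lo in both states. T-ALL was lower in both F4/80lo gates and nearly equal to normal in Ly6cloF4/80hi, and the states overlapped (log2 -0.40, SE 0.19, adjusted p = 0.183 by limma). The value was -0.23 without either Ly6chiF4/80lo library and -0.63 without either Ly6cloF4/80hi library.

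Within a gate there was 1 library per state, so ratios have no test. Intervals are 95% counting intervals and cover counting error only. In Ly6chiF4/80lo, 3 of the 7 chemokines that reached 5 FPKM were at least 2-fold lower in T-ALL, beside 4.46% of genes at that level, and none was 2-fold higher, beside 7.51% (12% in either direction). These were Ccl5 with a ratio of T-ALL to normal of 0.447 (0.401 to 0.497), Ccl6 with 0.46 (0.433 to 0.488) and Ccl9 with 0.482 (0.443 to 0.525). Cxcl10 was the 1 chemokine of this gate whose counting interval lay above 1, with a ratio of 1.7 (1.29 to 2.24). The median log2 ratio was -0.76 for the 10 and -0.74 for the 7 at 5 FPKM, beside -0.05 for all genes at that level. In the same pair of libraries the 10 neutrophil genes had a median log2 ratio of 1.68, with 9 at least 2-fold higher, and the sum of 8 general macrophage genes was 6554 FPKM in T-ALL and 13310 FPKM in normal. Lyz2 made up most of that sum (5901 and 12010 FPKM). The 7 general macrophage genes at 5 FPKM had a median log2 ratio of -1.01. The part of these lists in the chemokine ratios was not tested.

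In Ly6cloF4/80lo, Cxcl2 was the only 1 of 8 chemokines at 5 FPKM that was 2-fold lower in T-ALL, beside 1.52% of genes, and none was 2-fold higher, beside 5.69% (7.21% in either direction). Ccl6 and Ccl9 were higher there, with ratios of T-ALL to normal of 1.55 (1.43 to 1.68) and 1.44 (1.3 to 1.6), opposite to Ly6chiF4/80lo. Ccl5 had a ratio of 0.841 (0.781 to 0.906) and Cxcl16 one of 0.689 (0.612 to 0.775). In Ly6cloF4/80hi, Cxcl2 was again the 1 of 8 that was 2-fold lower, beside 6.54% of genes, and none was 2-fold higher, beside 10.8% (17.3% in either direction). The ratio there was 0.67 (0.607 to 0.74) for Ccl6, 1.3 (1.16 to 1.46) for Ccl5 and 1.24 (1.05 to 1.48) for Ccl9. The median log2 ratio of the 10 was -0.13 in Ly6cloF4/80lo and -0.04 in Ly6cloF4/80hi, beside 0.02 and 0.05 for all genes at 5 FPKM. Over the 8 chemokines at 5 FPKM it was positive, at 0.13 and 0.15.

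**Figure D3:**
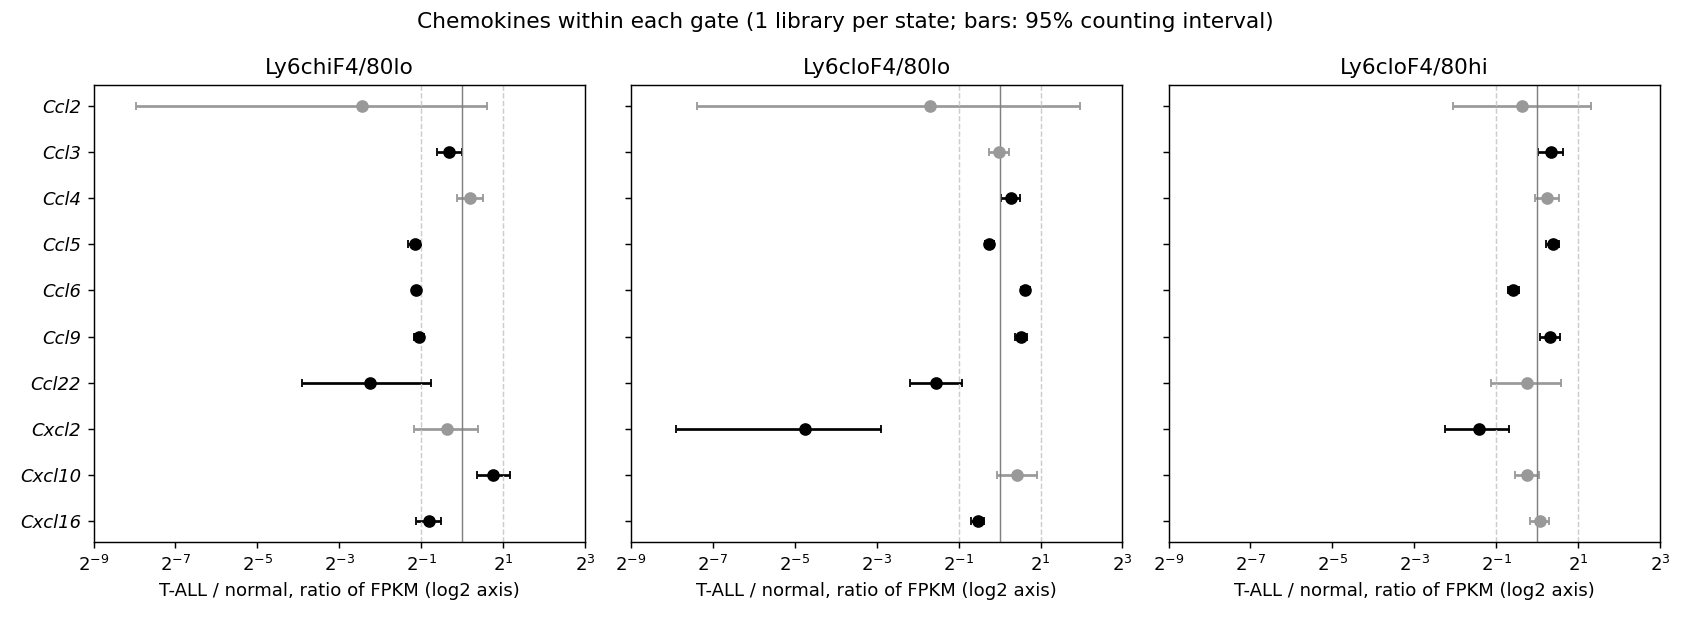
Ratio of T-ALL to normal FPKM for each chemokine within each gate, on a log2 axis with 1 library per state; bars are 95% counting intervals, black where they exclude 1, and dashed lines mark 2-fold. Ccl5 (0.447), Ccl6 (0.46) and Ccl9 (0.482) lie left of the 2-fold line in Ly6chiF4/80lo alone, and Cxcl2 is lowest in Ly6cloF4/80lo at 0.037.

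Between gates, Ccl4, Ccl6, Ccl9, Cxcl10 and Cxcl16 each passed in 1 comparison. The share of all genes passing in at least 1 comparison was not counted, and that of each comparison is given below. The order of the gates was the same in T-ALL and normal for 7 of the 10, beside 38.7% of all tested genes. The highest gate was the same for 9, Cxcl2 being the exception, beside 59.7% of all tested genes. In Ly6cloF4/80hi against Ly6chiF4/80lo, 2 of the 10 passed, both lower, beside 12.8% of all genes in either direction, 7.1% higher and 5.68% lower. Ccl9 had a log2 change of -2.24 (SE 0.37, adjusted p = 0.0155 by limma), with 12.6 and 10.1 FPKM in T-ALL and normal Ly6cloF4/80hi against 39.6 and 82.2 FPKM in Ly6chiF4/80lo. It passed in 11 of 13 alternatives, and did not pass without the block (adjusted p = 0.059) or without the normal Ly6cloF4/80hi library (0.143). Ccl6 had a log2 change of -1.79 (SE 0.40, adjusted p = 0.0368 by limma), with 58.0 and 86.7 FPKM in Ly6cloF4/80hi against 168 and 366 FPKM in Ly6chiF4/80lo. It passed in 7 of 13 alternatives. The adjusted p was 0.0797 with no filter on low values, 0.0594 after quantile normalization and 0.137 without the block, and it was 0.142 without the normal Ly6chiF4/80lo library and 0.158 and 0.169 without the T-ALL and the normal Ly6cloF4/80hi library. For both genes both Ly6cloF4/80hi libraries lay below both Ly6chiF4/80lo libraries, as for 16.3% of all genes, and 2 of the 10 lay above (Cxcl10 and Cxcl16), as for 27.1%. Classical monocyte markers were lower in the same comparison. All 8 were found, none was at 0, their sum was 496 and 333 FPKM in T-ALL and normal Ly6cloF4/80hi against 4231 and 3020 FPKM in Ly6chiF4/80lo, and the neutrophil sum was 212 and 337 against 45271 and 13478 FPKM. Their part in the result was not tested.

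In Ly6cloF4/80lo against Ly6chiF4/80lo, 2 of the 10 passed, both higher, beside 4.73% of all genes in either direction, 2.68% higher and 2.05% lower. Cxcl16 had a log2 change of 1.28 (SE 0.23, adjusted p = 0.0381 by limma), with 22.5 and 32.6 FPKM in T-ALL and normal Ly6cloF4/80lo against 7.92 and 13.9 FPKM in Ly6chiF4/80lo. Ccl4 stood at the threshold, with a log2 change of 0.77 (SE 0.16, adjusted p = 0.04999948 by limma). Cxcl16 passed in 5 and Ccl4 in 2 of 13 alternatives, with adjusted p of 0.0168 to 0.26 and 0.0455 to 0.323, and neither passed after median-ratio rescaling (0.0599 and 0.097). Cxcl16 did not pass without the T-ALL Ly6chiF4/80lo (adjusted p = 0.149), T-ALL Ly6cloF4/80lo (0.0958) or normal Ly6cloF4/80lo library (0.219), and Ccl4 did not pass without any 1 of the 6 libraries (0.0578 to 0.302). In 5 of the 10 chemokines both Ly6cloF4/80lo libraries were above both Ly6chiF4/80lo libraries, as for 35.1% of all genes, and in 3 they were below, as for 13%. Conventional dendritic cell markers were higher in this comparison (6 of 9 passed), as were B cell markers (5 of 7), and their part in the result was not tested.

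In Ly6cloF4/80hi against Ly6cloF4/80lo, Cxcl10 was the 1 of the 10 that passed, beside 3.56% of all genes in either direction, 2.66% higher and 0.904% lower. It had a log2 change of 1.33 (SE 0.25, adjusted p = 0.0473 by limma), with 20.3 and 23.9 FPKM in T-ALL and normal Ly6cloF4/80hi against 9.48 and 7.05 FPKM in Ly6cloF4/80lo. It passed in 5 of 13 alternatives (adjusted p 0.017 to 0.283) and did not pass without the T-ALL Ly6cloF4/80lo (0.11), normal Ly6cloF4/80lo (0.283) or normal Ly6cloF4/80hi library (log2 0.94, adjusted p = 0.245). Red pulp macrophage markers were higher in this comparison (10 of 10 passed, none at 0, median log2 4.34), with a sum of 5601 and 14006 FPKM in T-ALL and normal Ly6cloF4/80hi against 345 and 764 FPKM in Ly6cloF4/80lo, and their part in the result was not tested. Ccl4 (log2 -0.81, SE 0.16, adjusted p = 0.0509 by limma) lay just outside. Ccl5 (log2 -1.28, SE 0.36, adjusted p = 0.127) and Ccl9 (log2 -1.38, SE 0.37, adjusted p = 0.112) had larger negative values with a wider spread, and Ccl9 passed when either Ly6chiF4/80lo library was left out (0.0137 and 0.0147). In 7 of the 10 both Ly6cloF4/80hi libraries lay below both Ly6cloF4/80lo libraries, as for 26.1% of all genes, and in 2 they lay above, as for 13.5%. The median log2 of the 10 was -0.67, beside -0.10 for all genes.

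**Figure D4:**
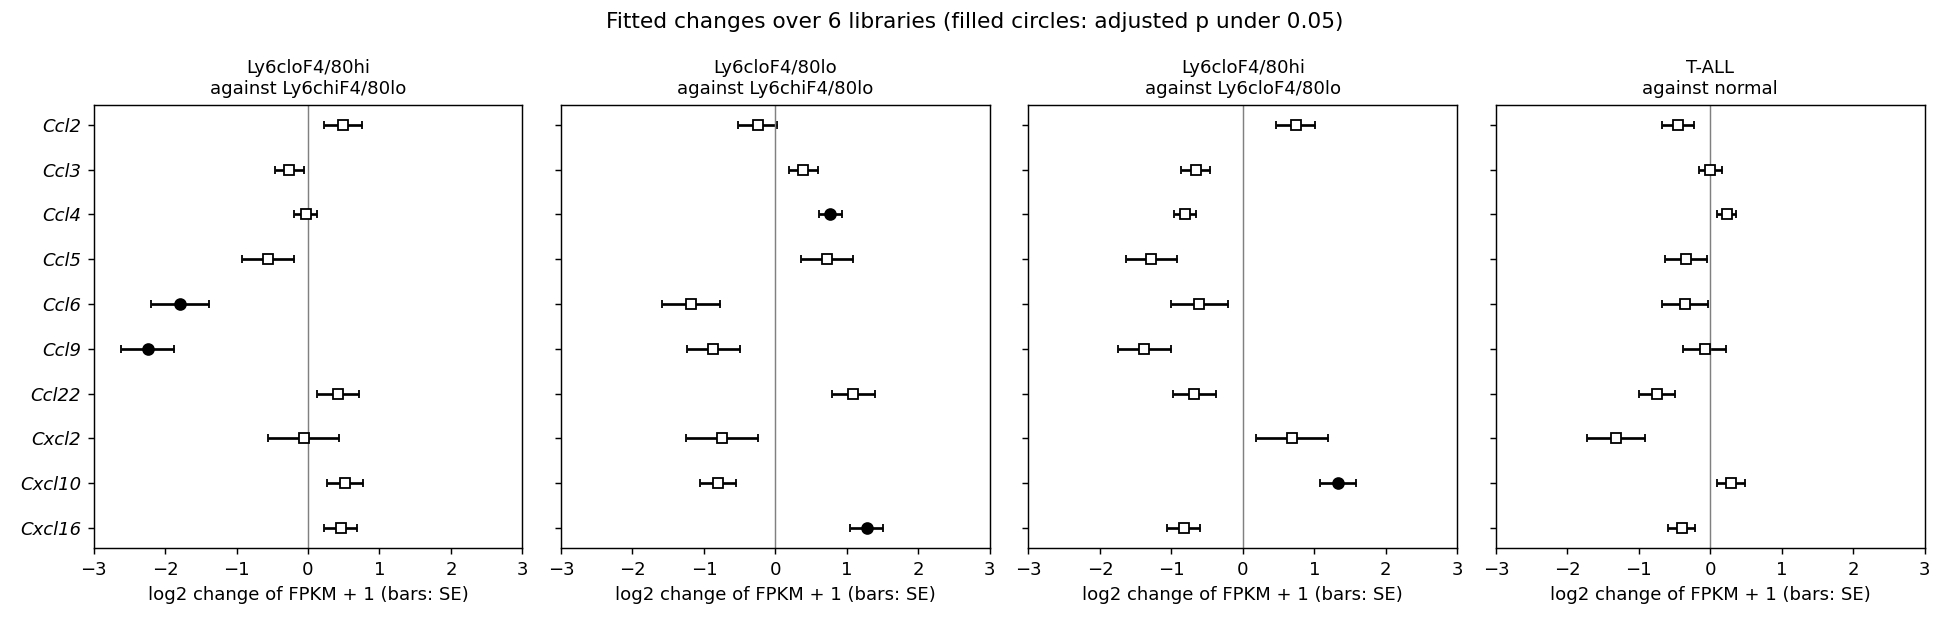
Fitted log2 change of FPKM + 1 with its SE for each chemokine in the 3 gate comparisons and in T-ALL against normal, over 6 libraries; filled circles passed at an adjusted p under 0.05. Ccl6 and Ccl9 are lower in Ly6cloF4/80hi than in Ly6chiF4/80lo, and no filled circle is seen in T-ALL against normal.

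The rest of the chemokine family was sparse. Of 17 other CC chemokines 14 were listed, 3 passed the filter and 1 reached 5 FPKM. That gene was Ccl24, an eosinophil attractant that binds Ccr3, with 0.35, 0.85 and 6.47 FPKM in T-ALL and 0.64, 1.30 and 21.6 FPKM in normal. It was higher in Ly6cloF4/80hi than in Ly6chiF4/80lo (log2 3.13, SE 0.37, adjusted p = 0.00504 by limma) and than in Ly6cloF4/80lo (log2 2.66, SE 0.37, adjusted p = 0.0182 by limma), which held in 12 and 10 of 13 alternatives. No other CC chemokine of this list passed in any of the 4 comparisons. Of 14 CXC, XC and CX3C chemokines 13 were listed and 5 tested. Pf4, the platelet factor, rose in T-ALL (log2 1.52, SE 0.36, adjusted p = 0.0471 by limma), with 8.44, 22.4 and 23.5 FPKM in T-ALL against 6.19, 3.68 and 5.83 FPKM in normal. This passed in 5 of 13 alternatives (highest adjusted p 0.247) and was lost without the T-ALL or normal library of either Ly6clo gate. The 7 megakaryocyte and platelet markers summed to 20.9 to 28.6 FPKM in T-ALL and 9.26 to 13.3 FPKM in normal, and their part in the Pf4 result was not tested. Ppbp, another platelet chemokine, had 8.93, 5.11 and 14.2 FPKM in T-ALL and 6.00, 4.36 and 4.52 FPKM in normal and did not pass (log2 0.72, SE 0.26, adjusted p = 0.112 by limma). Cxcl9, the other interferon-induced Cxcr3 ligand measured above 5 FPKM, had 13.8 and 12.5 FPKM in T-ALL and normal Ly6cloF4/80hi against 8.19 and 5.53 FPKM in Ly6chiF4/80lo (log2 0.87, SE 0.18, adjusted p = 0.0319 by limma), which passed in 3 of 13 alternatives and in none that left out a library. Xcl1, a lymphocyte product that acts on Xcr1 of dendritic cells, had 53.7 FPKM in T-ALL Ly6cloF4/80lo and 5.01 to 13.4 FPKM in the other 5 libraries, and did not pass in T-ALL against normal (adjusted p = 0.0647 by limma, passing in 2 of 13 alternatives).

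Receptors for the 10 ligands were unevenly present in the same gates. All 22 chemokine receptors considered were listed and 18 tested. In T-ALL against normal 2 of the 18 were higher and 3 lower, beside 8.2 and 3.94% of all genes. Cxcr3, the Cxcl10 receptor, had 71.4, 22.7 and 19.7 FPKM in T-ALL and 16.4, 11.1 and 8.83 FPKM in normal, with every T-ALL library above every normal one, as for 13.8% of all genes (log2 1.37, SE 0.23, adjusted p = 0.0228 by limma). This passed in 9 of 13 alternatives (highest adjusted p 0.25) and was lost without either Ly6cloF4/80hi library. Ccr2, the Ccl2 receptor of monocytes, had 37.4, 10.0 and 4.73 FPKM in T-ALL and 167, 21.3 and 7.88 FPKM in normal (log2 -1.26, SE 0.29, adjusted p = 0.0421 by limma), lower in T-ALL in each gate. It passed in 4 of 13 alternatives (highest adjusted p 0.615) and in none that left out a library. Ccr3, which binds Ccl5 and Ccl24, had 2.47, 2.77 and 57.0 FPKM in T-ALL and 7.39, 9.13 and 264 FPKM in normal (log2 -1.63, SE 0.21, adjusted p = 0.0116 by limma). Ccr10 was higher (0.85) and Xcr1 lower (-0.77) on the log2 scale, both with an adjusted p of 0.0447 by limma, and each passed in 2 alternatives, none of which left out a library. Ccr3 passed in 12 of 13 alternatives, all but that without the block (0.646). Red pulp macrophage markers were lower alongside Ccr3. All 10 were found, none was at 0, 8 passed as lower in T-ALL and none as higher (median log2 -1.23), and their sum was 352, 345 and 5601 FPKM in T-ALL and 638, 764 and 14006 FPKM in normal. Plasma cell markers were higher alongside Cxcr3 and Ccr10. All 7 were found, none was at 0, 6 passed as higher in T-ALL and none as lower (median log2 1.46), and their sum was 14684, 1723 and 1678 FPKM in T-ALL and 5866, 734 and 463 FPKM in normal. Their part in the receptor values was not tested.

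Ccr1, a receptor that Ccl3, Ccl5, Ccl6 and Ccl9 share, was low. It had 9.38, 3.17 and 2.61 FPKM in T-ALL and 4.37, 5.02 and 2.37 FPKM in normal. Cxcr2, for Cxcl2, had 32.6, 19.0 and 17.7 FPKM in T-ALL and 23.4, 16.5 and 21.7 FPKM in normal. Cxcr6, for Cxcl16, was at most 4.51 FPKM and Ccr4, for Ccl22, at most 1.17 FPKM. In Ly6cloF4/80hi against Ly6chiF4/80lo 3 of the 18 tested receptors were higher and 5 lower, led by Ccr3 (log2 4.52) and Ccr2 (log2 -3.50). The shares of all genes were 7.1% higher and 5.68% lower. In Ly6cloF4/80lo against Ly6chiF4/80lo 4 were higher (Cxcr5, Ccr6, Ccr7 and Xcr1) and 3 lower (Ccr2, Ccr9 and Ccr10), beside 2.68 and 2.05% of all genes. Each of these receptor calls was lost with no block and without 1 or more of the libraries. In Ly6cloF4/80hi against Ly6cloF4/80lo Ccr3 alone passed (log2 4.33, SE 0.25, adjusted p = 0.00104 by limma), beside 2.66% of all genes higher and 0.904% lower. Of the other receptors at 5 FPKM, Ccrl2 had 15.4 to 21.7 FPKM in T-ALL and 18.4 to 36.4 FPKM in normal, Cxcr4 had 10.8 to 16.7 FPKM in T-ALL and 8.58 to 14.5 FPKM in normal, and neither passed in T-ALL against normal (adjusted p = 0.174 and 0.543 by limma). Ackr1, a scavenging receptor, had 14.2 FPKM in T-ALL Ly6cloF4/80hi and at most 3.05 FPKM elsewhere (adjusted p = 0.215 by limma). These receptor levels are sums over all cells in a gate and do not show which cell carried a receptor.

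**Figure D5:**
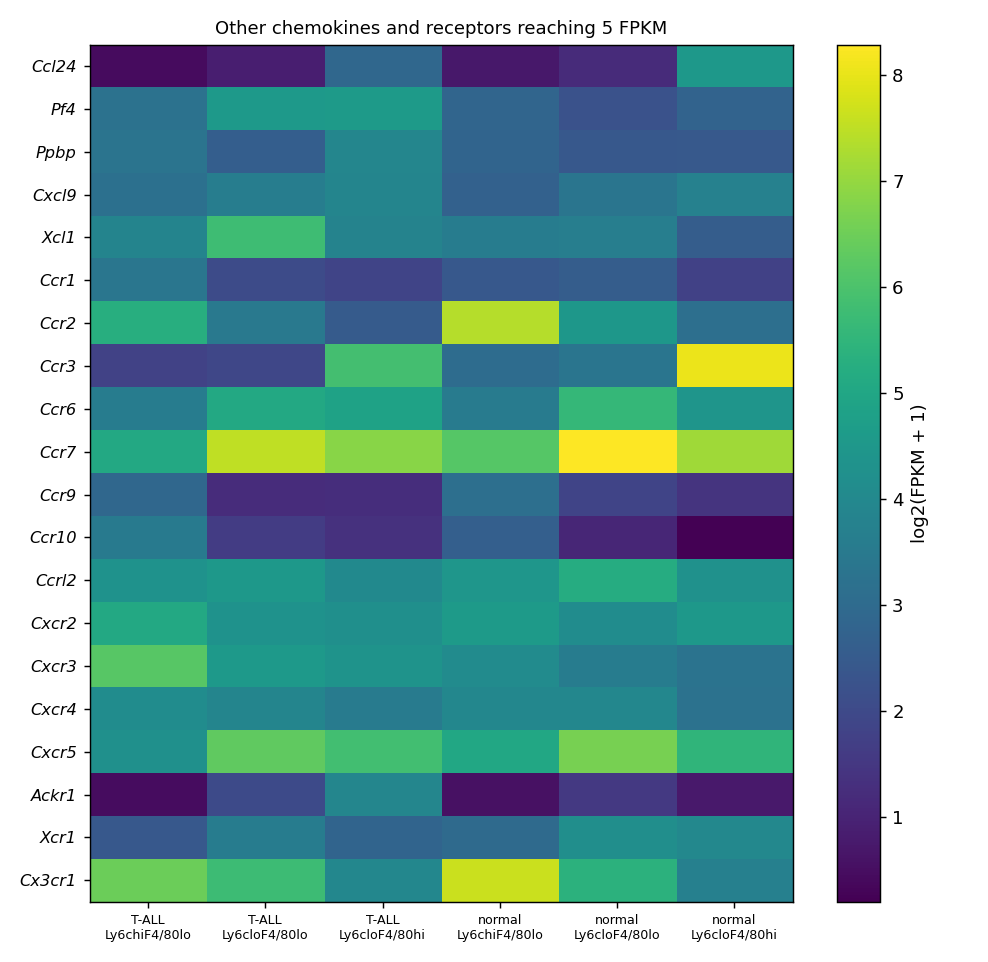
Colour map of log2(FPKM + 1) for the other chemokines and the receptors of the list that reached 5 FPKM in at least 1 library, with the 3 T-ALL libraries left of the 3 normal ones. Ccr3 and Ccl24 are brightest in Ly6cloF4/80hi, Ccr2 and Cx3cr1 in Ly6chiF4/80lo, and Cxcr3 in T-ALL Ly6chiF4/80lo.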

How the data were processed

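RNA of 6 sorted spleen libraries was measured. The deposited values are FPKM per Entrez gene, for which the submitters' processing notes name Bowtie2 2.2.5 and RSEM. The build, the annotation and the version of RSEM were not given in the sources used here. A gene missing from a library was taken as 0 FPKM. Symbols came from a RefSeq table (GRCm38.p6) for 16017 of 16058 identifiers, and 41 kept none.

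Depth was recovered from the spacing of low FPKM values with GENCODE M21 transcript lengths. On simulated libraries it was at most 0.234% off. Annotated length exceeds effective length, so true depth is somewhat higher. Fragment counts from it gave exact 95% counting intervals, which cover counting error only.

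The fit used log2(FPKM + 1) and limma 3.58.1 (R 4.3.3, statmod 1.5.0) with a trended and robust prior. Python 3.11.15, numpy 2.4.6, pandas 2.3.3, scipy 1.17.1 and matplotlib 3.10.9 were used for the rest. Gate and state were additive terms over all 6 libraries, which leaves 2 residual degrees of freedom. An interaction could not be fitted. A state difference that varied between gates therefore entered the residual spread together with noise. In simulated data with 200 changed of 11616 genes, T-ALL against normal recovered 87.5% at a log2 change of 1 and 99.5% at 2, with 17 and 18 false calls. In the 6 libraries themselves Cxcl2, with a log2 change of -1.32 (SE 0.41), did not pass. The simulated shares therefore do not give how often a change of that size would pass among the 10 members. The members and lists were chosen with earlier results of these data known. Named genes were the 10 members and the sort genes, and could be listed chemokines and receptors reaching 5 FPKM, up to 4 of each other list by size of change, and the 3 genes most like each member. Ccr4, Cxcr6, Mertk, Ifit3 and Mx1 were named after their values were seen, and 1 receptor is not reported here. The settings tried were another pseudocount, other filters, 2 rescalings, no trended prior, no block and each library left out. In T-ALL against normal, leaving out either library of a gate gives the same log2 change, because the gate term takes up the remaining one. Those 2 refits are therefore not separate evidence, although the counts of alternatives hold both.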

Additional observations from a re-analysis of the deposited data

Results flagged for a closer look

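Within gates, 4 of the chemokines had ratios of T-ALL to normal on opposite sides of 1, each with a 95% counting interval that left out 1. Ccl3 had a ratio of 0.806 in Ly6chiF4/80lo and 1.27 in Ly6cloF4/80hi. Ccl5 had 0.447 in Ly6chiF4/80lo and 1.3 in Ly6cloF4/80hi. Ccl6 had 0.46 in Ly6chiF4/80lo and 1.55 in Ly6cloF4/80lo. Ccl9 had 0.482 in Ly6chiF4/80lo and 1.44 in Ly6cloF4/80lo. None of the 4 met the planned rule, which asked for a ratio 2-fold lower in 1 gate and 2-fold higher in another. Counting intervals are narrow for abundant genes, and the share of all genes with such opposite ratios was not counted. Each gate had 1 library per state, so the difference between gates was not tested.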

How the results depend on the processing

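Of 508 refits of the 40 member tests, 446 kept direction and side of the threshold, 35 lost a pass, 9 gained one and 18 changed sign. Most of the 446 were tests that passed in neither fit. All 35 losses fell on the passing tests of Ccl4, Ccl6, Ccl9, Cxcl10 and Cxcl16. These held in 2, 7, 11, 5 and 5 of 13 alternatives. Genes passing numbered 1410 in T-ALL against normal, 1485 in Ly6cloF4/80hi against Ly6chiF4/80lo, 549 in Ly6cloF4/80lo against Ly6chiF4/80lo and 414 in Ly6cloF4/80hi against Ly6cloF4/80lo. With no filter on low values these were 370, 867, 156 and 173. With no block they were 161, 197, 0 and 0 by limma, with 2024, 1877, 1335 and 1179 at an unadjusted p under 0.05. With 1 library left out the counts ran from 283 to 923, from 617 to 1277, from 81 to 718 and from 127 to 668. They moved by over 1.5 times without any of the 6 libraries in the first comparison, without either Ly6chiF4/80lo (835 for T-ALL, 984 for normal) or normal Ly6cloF4/80hi (617) in the second, without either Ly6cloF4/80lo (225, 81) or T-ALL Ly6chiF4/80lo (137) in the third, and without normal Ly6cloF4/80lo (127) or either Ly6cloF4/80hi (668 for T-ALL, 149 for normal) in the fourth. Signs changed as follows when 1 library was left out. In T-ALL against normal, log2 ran from -0.16 to 0.16 for Ccl3, from -0.70 to 0.07 for Ccl5, from -0.84 to 0.03 for Ccl6 and from -0.37 to 0.40 for Ccl9. In Ly6cloF4/80hi against Ly6chiF4/80lo it ran from -1.17 to 0.05 for Ccl5, from -0.03 to 0.87 for Ccl22 and from -0.83 to 0.71 for Cxcl2. In Ly6cloF4/80lo against Ly6chiF4/80lo it ran from -1.68 to 0.17 for Cxcl2. In Ly6cloF4/80hi against Ly6cloF4/80lo it ran from -1.35 to 0.12 for Ccl6 and from -0.23 to 1.62 for Cxcl2. Ccl3 in T-ALL against normal was -0.01 after median-ratio rescaling and -0.07 after quantile normalization. The cause was not tested. The median of all genes was 0.12 in Ly6cloF4/80hi against Ly6chiF4/80lo as deposited and 0.02 and 0.00 after median-ratio rescaling and quantile normalization, with 55.6, 45.4 and 42.6% of calls higher. In Ly6cloF4/80lo against Ly6chiF4/80lo it was 0.19, 0.01 and 0.04, with 56.6, 35.8 and 40.2% higher. No paired analysis was possible because the labels carry no replicate numbers that join libraries, and the gate itself was the block. Depth limits Ccl2 (1 to 8 fragments), Cxcl2 (2 to 53) and Ccl22 (5 to 82).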

Other observations

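Of the 10 chemokines, 5 lie in 1 run of genes on chromosome 11. In the RefSeq table the order is Ccl5, the pseudogene Ccl16-ps, Ccl9, E230016K23Rik, Ccl6, Gm38933, Rpl9-ps1, Ccl3 and Ccl4. Neighbours did not share 1 pattern. Ccl6 and Ccl9 were highest in Ly6chiF4/80lo in both states, while Ccl3, Ccl4 and Ccl5 were highest in Ly6cloF4/80lo in both.

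The genes most like a chemokine were ranked by Pearson's r of log2(FPKM + 1) over the 6 libraries among 3688 genes, as a description of points that share gates and states. The closest to Cxcl2 was the immediate early gene Fosb (r = 0.953). The closest to Ccl9 was Ldlrad3 (0.999), and to Ccl6 it was Ifitm3 (0.992). The closest to Ccl5 were Sgms1 and Gpr18 (both 0.976), followed by Klrd1, a natural killer cell receptor (0.969). For Cxcl16 the closest was Tctex1d2 (0.996), for Ccl22 Carns1 (0.988) and for Ccl2 Hpgd (0.982).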
